A study of Homo sapiens with 2 samples.

Results

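The serine synthesis and folate one-carbon enzymes PHGDH, PSAT1, PSPH, SHMT1, MTHFD1, SHMT2, MTHFD2 and MTHFD1L were examined in NK92 cells, an established human line derived from a natural killer cell leukemia. These 8 genes were chosen by symbol from the 46427 rows of the deposited count table, and each symbol had 1 row. A culture grown in medium with human serum for 18 h supplied 2 dishes, and RNA was compared after a 6 h exposure period in new medium. The PPMX-T003 group is the dish that received 10 µg/mL of PPMX-T003, a human antibody that blocks transferrin receptor 1 (TfR1), the route by which cells take up transferrin-bound iron, and the control group is the dish without it. Poly(A)-selected, stranded RNA libraries were sequenced, 1 per group, so differences could not be set against a spread between replicates and no p-value is given. The control library held 46766416 counts and the PPMX-T003 library 43178462. The deposited columns carry the names 0 h and 6 h although both dishes were described as cultured for 6 h, and a difference in harvest time cannot be told apart from the exposure.

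Serine is made in the cytosol from 3-phosphoglycerate, an intermediate of glycolysis, by PHGDH, PSAT1 and PSPH acting in that order. Serine hydroxymethyltransferase then passes a carbon unit from serine to tetrahydrofolate, in the cytosol through SHMT1 and in mitochondria through SHMT2. The folate-bound unit is interconverted by MTHFD1 in the cytosol and by MTHFD2 and MTHFD1L in mitochondria, which release formate for the synthesis of purines and thymidylate in dividing cells.

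The label of the line was checked against markers. All 8 natural killer cell genes listed were detected, with a summed TPM (a level per length, brought to a common library total and deposited as whole numbers) of 6526 in the control and 7123 in the PPMX-T003 library. IL2RB had the most reads among them, at 56260 and 55986. Of 16 markers of T cells, B cells, monocytes, erythroid cells, hepatocytes and fibroblasts, 11 had 0 counts in both libraries, and the summed TPM of the 16 was 1 in each library. The T cell markers CD3D, CD3G and CD8A and the B cell marker MS4A1 were among those at 0. Outside the list, and added after their values were seen, CD3E had 19080 and 18942 counts (TPM 673 and 698), CD247 6963 and 7047 counts, and CD28 2252 and 1803 counts, so that other genes known from T cells, CD3E and CD247 of the T cell receptor complex among them, were expressed while CD3D and CD3G were at 0. CSF1R, with 22 and 9 counts, had the most reads of the 16.

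PHGDH, the first enzyme of serine synthesis, was not detected. Its row (NCBI Gene 26227, chr1:119711934-119744215, GRCh38.p14) had 0 counts in the control and 0 in the PPMX-T003 library, and its TPM was 0 in both. A count of 0 allows up to 3 counts, or 0.0641 CPM (counts brought to a common library size) of the control and 0.0695 CPM of the PPMX-T003 library. This limit is one-sided, and the exact Clopper-Pearson upper bound used for other members is 0.0788 CPM and 0.0855 CPM. Limits and intervals here cover counting error and not the estimate by which reads were assigned to genes. Among 19672 protein-coding rows, 7202 (36.6%) were also at 0 in both libraries. No fold change is given for PHGDH.

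The next enzymes of the same route were present. PSAT1, the aminotransferase of the second step (NCBI Gene 29968, chr9:78297125-78330093), had 2909 counts in the control and 2249 in the PPMX-T003 library. After scaling of the libraries with a trimmed mean of log ratios (TMM), this was 62.2 CPM (95% Clopper-Pearson interval 59.9 to 64.5) and 52.1 CPM (49.99 to 54.3). The intervals of both libraries did not overlap, and PSAT1 was lower in the PPMX-T003 library, with a log2 fold change of -0.25 (95% counting interval -0.33 to -0.17), a change of -16.1%. PSPH, the phosphatase of the last step (NCBI Gene 5723, chr7:56011064-56051444), had 936 and 923 counts. Its log2 fold change of 0.097 had an interval that held 0 (-0.036 to 0.23). Within each library, there were 3.11 PSAT1 reads per PSPH read in the control and 2.44 in the PPMX-T003 library, a log2 change of that ratio of -0.35 (-0.50 to -0.20). PSAT1 was thus lower relative to PSPH without any scaling between libraries. In bulk RNA, fewer cells expressing a gene and less of its RNA per cell cannot be told apart.

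Of the cytosolic folate enzymes, SHMT1 (NCBI Gene 6470, chr17:18327873-18363550) had 1683 counts in the control and 1721 in the PPMX-T003 library, or 35.96 CPM and 39.9 CPM. It was higher in the PPMX-T003 library by a log2 fold change of 0.15 (0.052 to 0.25), or 0.082 with the deposited TPM. SHMT1 shares 196 of its 7281 exon bases with SMCR8 on the opposite strand, and SMCR8 was lower in the PPMX-T003 library, with 2186 and 1799 counts and a log2 fold change of -0.16 (-0.25 to -0.073). The use of strand in counting is not given in the sources used here, so reads of both genes in the shared bases cannot be told apart. MTHFD1, which joins several activities of the cytosolic pathway in a single protein (NCBI Gene 4522, chr14:64388353-64460025), had 15449 and 14123 counts, or 330.1 CPM and 327 CPM. Its log2 fold change of -0.012 had an interval that held 0 (-0.045 to 0.021), so MTHFD1 did not differ between the libraries beyond counting error. MTHFD1 shares 178 of its 9377 exon bases with ZBTB25 on the opposite strand, which had 878 and 755 counts.

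Of the mitochondrial enzymes, SHMT2 (NCBI Gene 6472, chr12:57229711-57234935) had 12652 counts in the control and 11457 in the PPMX-T003 library, or 270.3 CPM and 266 CPM. The log2 fold change was -0.026 (-0.062 to 0.011). MTHFD2, the dehydrogenase and cyclohydrolase (NCBI Gene 10797, chr2:74198615-74217565), had 21315 and 19337 counts, or 455 CPM and 448 CPM, with a log2 fold change of -0.023 (-0.051 to 0.0049). Both intervals held 0. MTHFD2 shares 1324 of its 4870 exon bases with SLC4A5 on the opposite strand, which had 75 and 71 counts, and SHMT2 shares 33 of 4838 with NDUFA4L2, which had 0 in both libraries. Members also overlap annotated genes that are not analysed here. MTHFD1L, the formate-producing synthetase (NCBI Gene 25902, chr6:150865702-151101887), had 4219 and 3579 counts, or 90.1 CPM and 82.9 CPM. It was lower in the PPMX-T003 library by a log2 fold change of -0.12 (-0.18 to -0.055), a change of -7.98%. With the deposited TPM the log2 fold change was -0.20.

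These counts of members were set beside those of the whole table. The interval lay below 0 for 2 of 7 detected members, against 23.9% of the 13665 genes that reached 20 counts in both libraries together, and above 0 for 1 of 7, against 21.8%. Among the 8359 genes with at least 1000 counts, a depth that each detected member reached, the shares were 32.1% below 0 and 27.8% above, so the members did not have more such intervals than genes of like depth. No detected member passed 2-fold, against 2.64% of the same genes in either direction and 0.0598% of the 8359 genes. The 1.2-fold threshold, used for genes of that depth, was passed by 0 of 7 members in either direction, while 5.11% of the 8359 genes were at least 1.2-fold lower and 2.79% at least 1.2-fold higher. PSAT1 lay next to this threshold, and 5.63% of the 8359 genes had a lower fold change than PSAT1. A lower fold change than that of MTHFD1L was found for 23.5% of them, and a higher one than that of SHMT1 for 13.0%. With a fit on GC and length removed, described further on, SHMT2 at -0.11 and MTHFD2 at 0.078 lay beyond counting error. The counts of intervals outside 0 thus depend on that fit, and the shares are given without it. SHMT1 with all reads of SMCR8 added was at -0.019 (-0.085 to 0.047), a sum that does not test how its reads were assigned. The plot of all genes tested shows the members inside the spread of genes of similar abundance.

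Mitochondrial and cytosolic enzymes were compared next. The median log2 fold change of the 3 mitochondrial enzymes was -0.026, with values from -0.12 to -0.023. That of the 4 detected cytosolic enzymes was 0.042, with values from -0.25 to 0.15. The range of the mitochondrial enzymes therefore lay within that of the cytosolic ones, and the difference of the medians was -0.068. Its size depended on the setting: -0.17 with the deposited TPM, -0.15 with the GC and length fit removed and -0.12 with the longest transcript in that fit. With all reads of overlapping genes added it was -0.0079. With the folate enzymes alone, SHMT1 and MTHFD1 against SHMT2, MTHFD2 and MTHFD1L, the difference of the medians was -0.094. These ranges did not overlap, although MTHFD1 at -0.012 and MTHFD2 at -0.023 had overlapping intervals. With a fit on GC content and length removed, described further on, MTHFD2 lay above MTHFD1 and these ranges overlapped.

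Read ratios of mitochondrial to cytosolic isozymes within a library do not depend on the scaling. There were 7.52 SHMT2 reads per SHMT1 read in the control (7.14 to 7.91) and 6.66 in the PPMX-T003 library (6.33 to 7.01), a log2 change of the ratio of -0.18 (-0.28 to -0.072). MTHFD1L reads per MTHFD1 read were 0.273 (0.264 to 0.283) and 0.253 (0.244 to 0.263), a log2 change of -0.11 (-0.18 to -0.036). Both ratios were lower in the PPMX-T003 library beyond counting error. MTHFD2 reads per MTHFD1 read were 1.38 (1.35 to 1.41) and 1.37 (1.34 to 1.40), and their log2 change of -0.011 (-0.054 to 0.032) held 0. With the deposited TPM this ratio changed by -0.11.

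**Figure D1:**
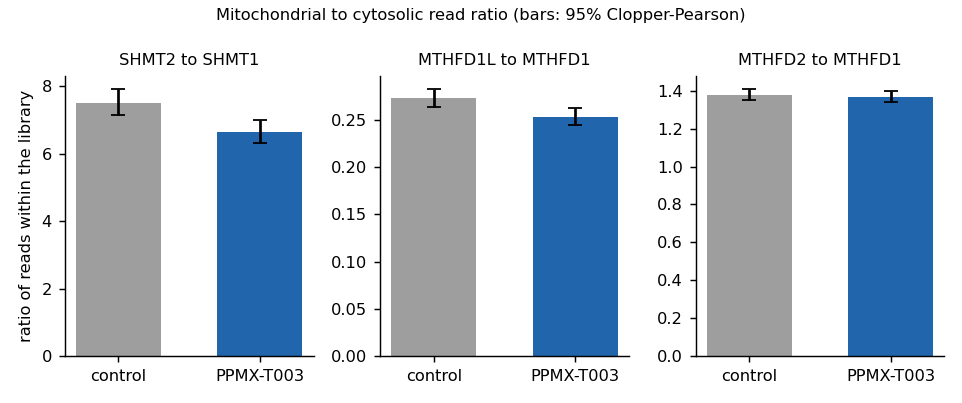
Reads of a mitochondrial enzyme divided by those of its cytosolic counterpart within each library, 1 library per group; bars are ratios, error bars 95% Clopper-Pearson intervals, and each panel has its own axis from 0. SHMT2 to SHMT1 went from 7.52 to 6.66, MTHFD1L to MTHFD1 from 0.273 to 0.253, and MTHFD2 to MTHFD1 from 1.38 to 1.37.

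Levels per length differed far more between enzymes than between libraries. In the control, the TPM was 285 for SHMT2, 262 for MTHFD2 and 235 for MTHFD1, and in the PPMX-T003 library 268, 233 and 225. The remaining TPM levels were 63 and 51 for PSAT1, 60 and 52 for MTHFD1L, 33 and 35 for SHMT1, and 19 and 20 for PSPH. PSAT1 and MTHFD1L, neighbours in this order, changed places between the libraries, and the other TPM ranks were the same in both. The summed TPM was 607 in the control and 553 in the PPMX-T003 library for the 3 mitochondrial enzymes, and 268 and 260 for the 2 cytosolic folate enzymes. Mitochondrial enzymes thus held 69.4% and 68.0% of the TPM of the 5 folate enzymes. In reads, the mitochondrial share was 69.0% (68.6 to 69.4) and 68.4% (68.0 to 68.9).

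The members differ in transcript GC content, from 41.4% in MTHFD2 and 44.1% in PSAT1 to 56.4% in SHMT2 and 57.5% in PHGDH. Over 9843 genes with at least 200 counts, the log2 fold change went up by 0.082 per 10 percentage points of GC and fell by 0.050 per doubling of length. After this fit was removed, the log2 fold change was -0.24 for PSAT1, -0.12 for MTHFD1L, 0.12 for SHMT1, 0.077 for PSPH and 0.0047 for MTHFD1. SHMT2 went to -0.11 and MTHFD2 to 0.078, so the signs of MTHFD2 and of MTHFD1, which was near 0, turned with this fit. The listed pseudogene rows of the members, 12 in all, held 2 counts in the control and 7 in the PPMX-T003 library.

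Promoter windows (250 bases before and 50 after a transcript start, RefSeq, GRCh38.p14) were found for 6 of the 8 members, as 9 windows. They were searched on both strands for TGATGNAA, a core of the element bound by ATF4 with C/EBP proteins, and for CACGTG, the E-box bound by MYC, which reads the same on both strands. Among 35116 windows of 27305 genes, TGATGNAA occurred in 3.62% and CACGTG in 7.26%. Of the 6 members, TGATGNAA was found in MTHFD1L, in 3 overlapping windows, and CACGTG in MTHFD1L and MTHFD1. By window, as the shares are counted, these were 3 and 4 of 9, with 3 of each from the overlapping MTHFD1L windows. The share of genes with a match is not given, so the 6 members are not set against a background. The windows of the undetected PHGDH and of the 2 members whose counting interval lay below 0 are shown, all on the plus strand, with matches in capitals: PHGDH at chr1:119711684-119711983, PSAT1 at chr9:78296875-78297174 and MTHFD1L at chr6:150866236-150866535.
PHGDH: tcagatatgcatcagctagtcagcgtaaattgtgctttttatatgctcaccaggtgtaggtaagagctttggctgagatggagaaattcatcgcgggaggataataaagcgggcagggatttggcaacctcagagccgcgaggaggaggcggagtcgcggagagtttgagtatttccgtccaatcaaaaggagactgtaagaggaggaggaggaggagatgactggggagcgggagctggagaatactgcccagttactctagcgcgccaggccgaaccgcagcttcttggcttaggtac
PSAT1: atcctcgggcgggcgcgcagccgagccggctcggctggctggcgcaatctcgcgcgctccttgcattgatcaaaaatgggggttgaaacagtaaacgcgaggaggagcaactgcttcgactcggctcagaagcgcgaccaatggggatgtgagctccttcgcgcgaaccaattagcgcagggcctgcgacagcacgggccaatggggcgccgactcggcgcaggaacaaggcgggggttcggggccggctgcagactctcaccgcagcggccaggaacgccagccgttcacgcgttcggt
MTHFD1L: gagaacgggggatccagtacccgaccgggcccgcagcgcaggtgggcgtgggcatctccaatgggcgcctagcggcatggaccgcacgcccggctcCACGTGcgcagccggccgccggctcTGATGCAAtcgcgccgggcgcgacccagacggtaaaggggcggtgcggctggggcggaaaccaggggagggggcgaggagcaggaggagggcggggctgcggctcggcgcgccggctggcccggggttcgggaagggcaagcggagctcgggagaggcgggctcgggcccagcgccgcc
In the MTHFD1L window shown, CACGTG starts at position -154 and TGATGCAA at -129 relative to the transcript start. These positions depend on the start: relative to the other starts of the overlapping windows they are -115 and -90, and -1 and 24, and the window of a further MTHFD1L start has no match. No match means that these letters are not in the window, and binding was not measured.

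Transcripts of ATF4, a transcription factor known to induce serine synthesis genes, had 16297 counts in the control and 14121 in the PPMX-T003 library, a log2 fold change of -0.089 (-0.12 to -0.057). MYC had 14303 and 14942 counts, a log2 fold change of 0.18 (0.15 to 0.21). NFE2L2, the regulator of the antioxidant response, had 3683 and 3462 counts, a log2 fold change of 0.028 (-0.039 to 0.095). ATF4 was thus slightly lower, MYC slightly higher, and NFE2L2 did not differ beyond counting error. With the GC and length fit removed, ATF4 was at -0.17, MYC at 0.13 and NFE2L2 at 0.083. With the deposited TPM, ATF4 was at -0.15, MYC at 0.12 and NFE2L2 at -0.041, so the value of NFE2L2 depended on the setting. ATF5, a further member of the ATF family, was higher, with 1558 and 1801 counts and a log2 fold change of 0.33 (0.23 to 0.43), which was 0.20 with the GC and length fit removed. ASNS, asparagine synthetase, had 107 and 25 counts, but its reads are divided with the readthrough row CZ1P-ASNS, which had 29 and 124. Summed, they gave 136 and 149 counts, a log2 fold change of 0.25 (-0.096 to 0.60), so no change of the locus was detectable at this depth.

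Of 70 further genes in 8 lists around one-carbon metabolism, 53 had at least 20 counts, and their median log2 fold change was -0.013, against -0.0020 over all genes tested. The interval lay below 0 for 14 of the 53 (26.4%) and above 0 for 16 (30.2%), beside the shares of 23.9% and 21.8% over all genes tested and 32.1% and 27.8% over those with at least 1000 counts. Of 49 with at least 1000 counts, 2 were at least 1.2-fold lower, SLC38A2 and AHCYL2, and 2 at least 1.2-fold higher, MTHFS and ATF5. With median-of-ratios scaling, 19 intervals lay below 0 and 14 above, beside 25.8% and 20.2% of all genes tested. With the GC and length fit removed these were 17 and 15, and with GC and length from the longest transcript 15 and 11. SFXN2, without GC and length, is not counted there, and shares over all genes are not given for these fits. Genes of the lists thus lay on both sides of 0, and which side held more depended on the setting. Over all genes tested that side also changed, with 21.9% below 0 and 23.9% above under upper-quartile scaling. The median was -0.049 with the deposited TPM.

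Among 9 serine and glycine carriers, 7 were tested, 3 with intervals below 0 and 2 above. SLC38A2, a sodium-coupled carrier of small neutral amino acids, had 3912 counts in the control and 2481 in the PPMX-T003 library, a log2 fold change of -0.54 (-0.61 to -0.47), and fell the most of the tested genes in the 8 lists apart from the ASNS row. Its relative SLC38A1 had 21985 and 17214 counts, a log2 fold change of -0.24 (-0.26 to -0.21). SFXN2 had 1813 and 1914 counts and a log2 fold change of 0.20 (0.10 to 0.29), or 0.34 with the deposited TPM. Both SLC38 carriers were lower. Of the sideroflexins, a family of mitochondrial carriers, SFXN2 was higher, whereas SFXN1, a mitochondrial serine transporter, was lower, with 14604 and 12468 counts and a log2 fold change of -0.11 (-0.15 to -0.076), or -0.051 when GC and length come from the longest transcript. With the GC and length fit removed, SLC38A2 was at -0.44 and SLC38A1 at -0.16, or at -0.42 and -0.11 with the longest-transcript fit, which takes GC and length from the longest paired transcript. SLC6A9 and SFXN3 were not detected.

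All 9 genes of cytosolic folate and thymidylate synthesis were tested, with a median log2 fold change of 0.0087, 2 intervals below 0 and 2 above. The sign of this median, near 0, turned under the GC and length fit (-0.010), the deposited TPM (-0.032) and median-of-ratios scaling (-0.0010). MTHFS, which returns 5-formyltetrahydrofolate to the active pool, had 970 and 1152 counts, a log2 fold change of 0.36 (0.24 to 0.49). FPGS, which adds glutamates to folates, had 2847 and 2900 counts, a log2 fold change of 0.14 (0.069 to 0.22). With the GC and length fit removed, FPGS, at 63.8% GC, no longer lay beyond counting error. GART of purine synthesis was lower, with 11753 and 10022 counts and a log2 fold change of -0.11 (-0.15 to -0.074), which was -0.070 with the GC and length fit removed and -0.19 with the deposited TPM. Thymidylate synthase, TYMS, had 11518 and 10468 counts and did not differ beyond counting error, with a log2 fold change of -0.021 (-0.059 to 0.018).

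Of 9 genes of mitochondrial folate and glycine cleavage, 7 were tested, with a median of 0.054, 2 intervals below 0 and 1 above. The median was 0 with the deposited TPM. SLC25A32, the mitochondrial folate carrier, had 7090 and 6029 counts, a log2 fold change of -0.12 (-0.17 to -0.067), which was -0.17 with the deposited TPM and -0.053 with the fit on the GC and length of the longest transcript. DLD had 5964 and 5193 counts, a log2 fold change of -0.082 (-0.14 to -0.029). GCSH, the hydrogen carrier of glycine cleavage, had 1144 and 1192 counts and a log2 fold change of 0.18 (0.058 to 0.29), and its reads may be divided with 4 pseudogene rows that held 263 and 243 counts. These glycine cleavage genes thus moved in opposite directions. MTHFD2L, the relative of MTHFD2, had 1242 and 1076 counts, 0.0583 and 0.0556 reads per MTHFD2 read. ALDH1L2, the mitochondrial formyltetrahydrofolate dehydrogenase, was not detected, and AMT had 0 and 11 counts.

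Of 5 folate carriers and receptors, SLC19A1, the reduced folate carrier, was detected, with 3166 and 3110 counts and a log2 fold change of 0.091 (0.020 to 0.16). This value was -0.066 with the GC and length fit removed. SLC46A1, FOLR1, FOLR2 and FOLR3 were not detected.

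Of 13 genes of the methionine cycle and transsulfuration, 9 were tested, with a median of -0.045, 2 intervals below 0 and 2 above. The median was 0.0074 with the GC and length fit removed and -0.0995 with the deposited TPM. AHCYL2 had 752 and 515 counts, a log2 fold change of -0.43 (-0.59 to -0.27), and MTAP had 3603 and 3030 counts, a log2 fold change of -0.13 (-0.20 to -0.063). With the GC and length fit removed, MTAP, at 40.9% GC and 4909 bases, no longer lay beyond counting error. MAT2A, which makes S-adenosylmethionine, had 23952 and 23733 counts, a log2 fold change of 0.10 (0.078 to 0.13). CBS, which joins serine to homocysteine, was not detected, whereas CTH, the next enzyme of transsulfuration, had 198 and 177 counts.

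Of 8 genes for other uses of serine, 5 were tested, with a median of -0.046. The serine palmitoyltransferase subunits SPTLC1 and SPTLC2 were lower, SPTLC1 with 4346 and 3714 counts (log2 fold change -0.11, -0.17 to -0.046) and SPTLC2 with 6501 and 5564 (-0.11, -0.16 to -0.055). With the GC and length fit removed, SPTLC2, at 43.8% GC and 8170 bases, was no longer lower. PTDSS1, a phosphatidylserine synthase, had 16754 and 15845 counts, a log2 fold change of 0.037 (0.0054 to 0.068). SDS and SDSL, which break serine down, and SPTLC3 were not detected.

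The 5 glycolytic genes around 3-phosphoglycerate had a median log2 fold change of 0.092, with 4 intervals above 0 and 0 below. These are among the deepest genes, whose counting intervals are narrow: of 519 genes with at least 30000 counts, 53.0% had an interval above 0 and 30.1% below. GAPDH had 116774 and 118007 counts, a log2 fold change of 0.13 (0.12 to 0.14), ENO1 had 164519 and 163638 counts, a log2 fold change of 0.11 (0.10 to 0.12), and PGAM1 had 17592 and 17283 counts, a log2 fold change of 0.092 (0.061 to 0.12). PGK1, which makes 3-phosphoglycerate, had 34632 and 31639 counts and did not differ beyond counting error, at -0.013 (-0.035 to 0.0089). The median of this list was 0.036 after the GC and length fit was removed, 0.019 with the longest transcript in it and 0.039 with the deposited TPM. Of the 12 regulators and stress genes, 10 were tested, with a median of 0.044, 3 intervals below 0, ASNS among them, and 3 above. Their median was -0.022 with the GC and length fit removed and -0.050 with the deposited TPM, so its sign depended on these settings. CHAC1 and VLDLR were not detected.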

How the data were processed

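RNA of 2 NK92 dishes was analysed, 1 library each. According to the methods, the authors trimmed reads with Trimmomatic 0.38, mapped them with HISAT2 2.2.0 and used StringTie 2.1.3b and edgeR 3.17 for the counts. The submitters' processing notes give build hg38. The deposited read counts are whole numbers, not scaled. The deposited TPM and FPKM hold whole numbers after rounding by the authors, and each was handled as a score. The column named 0 h was read as the control.

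Counts were scaled by TMM (30% of log ratios and 5% of levels trimmed) with scipy 1.17.1, numpy 2.4.6, statsmodels 0.14.6 and pandas 2.3.3 under Python 3.11.15, as log2 CPM with a prior count of 2. Intervals (95%) are Clopper-Pearson, computed on the PPMX-T003 share of all reads of a gene, and for changes of read ratios normal intervals on the log scale. Functions were tested on simulated data. GC content and length are medians over GENCODE 29 transcripts paired with the RefSeq accessions of a row, known for all 8 members and for 94.5% of genes with at least 200 counts. Exon overlap was read from the same release, over the exons of all transcripts of a gene. Gene positions are those of RefSeq on GRCh38.p14.

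The genes named are the members and their pseudogene rows, the 3 genes of each list with the largest change by the interval bound nearest to 0 among those with at least 100 counts, ATF4, MYC and NFE2L2, and each gene with at most 3 counts in both libraries. CD3E, CD247, CD28, SFXN1, TYMS, MTHFD2L, GLDC, AMT, CTH, PGK1, CZ1P-ASNS and the genes overlapping members were added after their values were seen. Members and lists were chosen with earlier results of these data known. The cytosolic median was planned over 5 enzymes and taken over 4, since PHGDH has no fold change. Columns of other samples numbered 0. The result of 1 planned marker gene is not reported here. Alternatives were other scalings, prior counts, thresholds and count filters, the deposited TPM, the GC and length fit, and added pseudogene or overlapping rows.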

Additional observations from a re-analysis of the deposited data

How the results depend on the processing

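With 1 library per condition, leaving out a replicate cannot be done. No paired analysis was possible because there is a single dish on each side. Of 311 values under alternatives, 263 stayed within the counting error of the reported value (for counts of genes, within 1.5 times), and 48 lay beyond it. The sign differed from the reported one in 17 of the 311, for 10 results, among them SHMT1 and the folate carrier median, which is SLC19A1 alone, whose reported intervals excluded 0. Over the alternatives, the log2 fold change of PSAT1 ranged from -0.30 to -0.23, that of MTHFD1L from -0.20 to -0.11, and the mitochondrial minus cytosolic median from -0.17 to -0.0079.

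With the deposited TPM, the log2 fold change was -0.062 for MTHFD1, -0.088 for SHMT2 and for the median of the 7 members, -0.17 for MTHFD2 and for the mitochondrial median, and -0.20 for MTHFD1L; the mitochondrial minus cytosolic median was -0.17, and the MTHFD2 to MTHFD1 ratio changed by -0.11. With the GC and length fit removed, SHMT2 and the mitochondrial median were at -0.11, MTHFD2 at 0.078 and MTHFD1 and the median of the 7 members at 0.0047, and with the longest transcript in that fit, chosen after seeing the data, SHMT2 and the mitochondrial median were at -0.089 and MTHFD2 at 0.063. Adding all reads of SMCR8 to SHMT1 and of ZBTB25 to MTHFD1, also chosen after seeing the data, gave -0.019 for SHMT1, -0.018 for the cytosolic median and -0.0068 for the SHMT2 to SHMT1 ratio change. These sums take in all reads of SMCR8, while 196 of 7281 SHMT1 exon bases are shared, so they do not test the assignment of SHMT1 reads. Members past 1.2-fold numbered 1 with the deposited TPM and 1 with median-of-ratios scaling, and 2 passed 1.1-fold. Shares over all genes are not given for these settings, so these counts say nothing particular about the members. The cause of the shifts under alternatives was not tested.

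The background share past 2-fold was 13.0% over genes with at least 1 count, 0.202% from 200 counts and 0.0598% from 1000 counts. Depth limits PSPH most among the detected members.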
